A study of Mus musculus with 5 samples.

Results

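Genes of heme synthesis, globin chains and iron handling were followed in the whole blood of 2 kinds of F1 mice. The set had 9 members, taken as listed (Alas2, Urod, Fech, Hba-a1, Hba-a2, Hbb-b2, Tfrc, Slc25a37 and Fth1) out of 18193 genes that had a probe set with a single gene symbol in the platform annotation. All 20 probe sets carrying just 1 of these symbols were described. Blood of adult female (DBA/2J x FVB/NJ)F1 mice (DBAxFVB F1) was measured on 3 arrays and blood of adult female (AKR/J x FVB/NJ)F1 mice (AKRxFVB F1) on 2 arrays, with 1 Affymetrix expression array for each sample. Both crosses were outcrosses to FVB/NJ and differ in the other parental strain, and the series was made to find genes whose basal blood expression depends on the genotype. Per the labels, every animal was killed by cervical dislocation under Avertin, blood was drawn by cardiac puncture, and no age beyond adult is given. Nothing in the labels says that separate animals gave the arrays of a cross. The p-values then measure only the spread among these arrays, which could be technical, and their small number limits precision.

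Heme is assembled from glycine and succinyl-CoA in a pathway that starts and ends in mitochondria, and in the red cell lineage its product is joined to alpha and beta globin chains to form hemoglobin. Iron reaches the developing red cell by transferrin uptake, enters the mitochondrion through a carrier and is inserted into protoporphyrin in the last step of the pathway, while ferritin stores iron that is not used. Circulating red cells have no nucleus, and reticulocytes, the youngest of them, still hold RNA for these proteins. In whole blood, fewer cells of a type and less RNA per cell cannot be told apart.

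The upstream sequences of 3 members are shown, of Alas2 for the first step of heme synthesis and of the alpha globin genes because theirs are alike. RefSeq sequence of GRCm38.p6 was on hand for 6 of the 9 members, and the 250 bases before the annotated start are given 5′ to 3′ on the plus strand, with capitals for GATAA, for CACCC and for CCAAT on either strand. Alas2 lies at chrX:150547167-150547416, Hba-a1 at chr11:32283422-32283671 and Hba-a2 at chr11:32296242-32296491.
Alas2: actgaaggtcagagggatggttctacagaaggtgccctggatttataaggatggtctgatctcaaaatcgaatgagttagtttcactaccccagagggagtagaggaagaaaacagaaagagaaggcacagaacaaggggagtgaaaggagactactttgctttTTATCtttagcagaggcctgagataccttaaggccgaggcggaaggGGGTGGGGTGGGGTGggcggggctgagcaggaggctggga
Hba-a1: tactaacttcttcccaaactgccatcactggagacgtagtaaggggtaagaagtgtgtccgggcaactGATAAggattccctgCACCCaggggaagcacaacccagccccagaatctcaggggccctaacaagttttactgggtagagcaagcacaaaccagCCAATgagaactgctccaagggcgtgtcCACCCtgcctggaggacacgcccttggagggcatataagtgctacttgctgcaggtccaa
Hba-a2: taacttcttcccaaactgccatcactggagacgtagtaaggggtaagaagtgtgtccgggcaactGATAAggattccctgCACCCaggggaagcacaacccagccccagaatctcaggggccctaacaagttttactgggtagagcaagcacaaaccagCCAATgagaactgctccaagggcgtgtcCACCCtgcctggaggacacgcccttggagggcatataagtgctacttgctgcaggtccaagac
GATAA (on the other strand TTATC) is the core bound by GATA factors, and CACCC (on the other strand GGGTG) is bound by Klf1 and related factors. The Alas2 window held TTATC at position -86 and GGGTG at -40, -35 and -30, counted back from the base before the start as -1. The Hba-a1 window held GATAA at -182, CACCC at -167 and -60 and CCAAT (on the other strand ATTGG) at -88. Shifted by 3 bases, the alpha globin windows matched at all 247 bases compared, with 0 mismatches, so their motifs recur in Hba-a2 at -185, -170, -63 and -91. Of 32851 upstream windows of the same length, 22.6% held GATAA, 52.0% CACCC and 33.85% CCAAT on either strand. Other members held such letters too. A window of Fth1 held TTATC at -175 and GGGTG at -98, the windows of Tfrc held GGGTG and CCAAT, and that of Urod held ATTGG. These matches describe letters and not binding.

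The deposited values were read as log2 expression. A positive difference between the crosses means a higher log2 value in DBAxFVB F1. Probe sets with a mean of at least 2.51 over the 5 arrays, the median of all probe sets that are not array controls, were tested with limma, which fits every probe set and moderates its variance. Of 22519 tested probe sets, 0% passed a Benjamini-Hochberg adjusted p below 0.05, and 10.4% had an unadjusted p below 0.05. DBAxFVB F1 array 3 stood apart from the other arrays. On it the median of the 18 hybridisation controls, which are spiked labelled transcripts, was 7.99, against 10.01 to 10.12 on the others. Its 3-prime minus 5-prime difference for Actb, a sign of RNA quality, was 1.32, against 0.82 and 0.68 on the other DBAxFVB F1 arrays and 1.22 and 1.03 on the AKRxFVB F1 arrays. Of the 143 tested probe sets with a mean of 10 or more, 86.7% were lowest on that array. Each member's difference is therefore also given without it.

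No member passed the test between the crosses. All 9 genes had at least 1 tested probe set, 14 in all, while 3 probe sets lay below the filter and 3 were array controls for Tfrc. Of the 14, 0 passed limma's adjusted p below 0.05, 0 had an unadjusted p below 0.05, and the smallest limma adjusted p was 0.655. Of these, 7 were higher and 7 lower in DBAxFVB F1, where 43.2% of all tested probe sets were lower. The groups did not overlap for 1 of the 14, against 28.9% of all tested probe sets. With each gene given by its probe set of highest mean, the median difference over the 9 members was 0.02, against 0.04 over all tested probe sets. Without DBAxFVB F1 array 3, 13 of the 14 probe sets were higher in DBAxFVB F1, against 57% of all tested probe sets and 44.8% of those with a mean of 10 or more, and the median over the 9 members was 0.12. That setting also gave 0 members at an unadjusted p below 0.05.

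**Figure D1:**
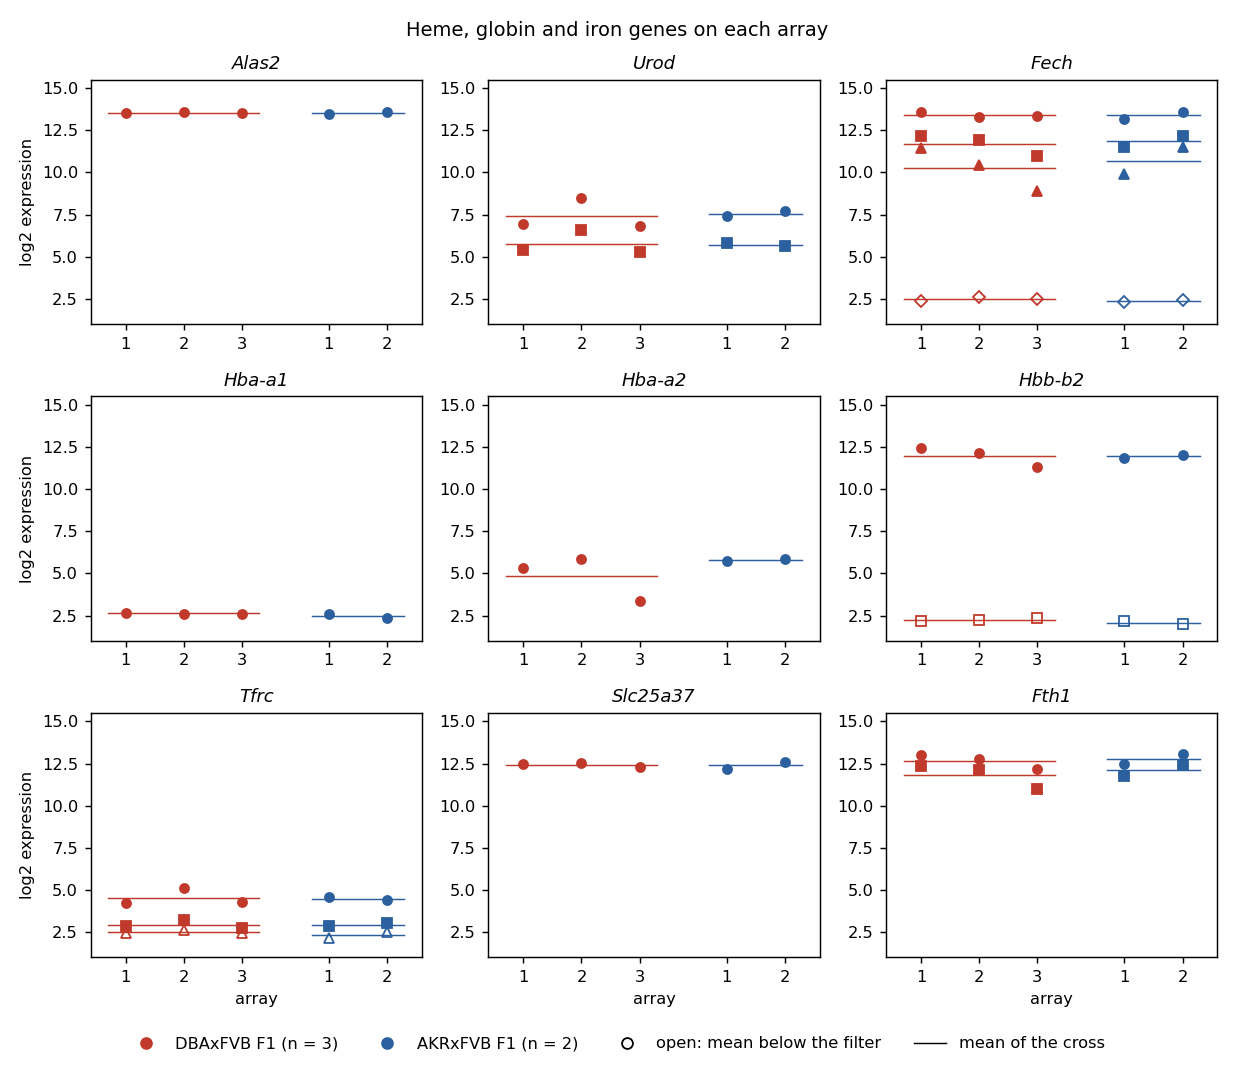
Log2 expression (vertical axis) of the 9 members on each array (horizontal axis), with DBAxFVB F1 in red on the left and AKRxFVB F1 in blue on the right of each panel. Each marker shape is a probe set (filled where tested, open where its mean lay below 2.51), lines are the means of a cross, and the Tfrc array controls are left out; Hba-a2 on DBAxFVB F1 array 3, at 3.39, is the point farthest from its cross.

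The start and the end of heme synthesis were measured at high signal, and their brightest probe sets differed by at most 0.04 between the crosses. Alas2 encodes the erythroid aminolevulinate synthase, which catalyses the first and rate-limiting step. It read 13.53, 13.57 and 13.50 on the DBAxFVB F1 arrays, against 13.45 and 13.59 on the AKRxFVB F1 arrays. All 5 values lay within 0.14 of each other and the groups overlapped. The difference was 0.02 ± 0.31 (SE), with a 95% interval of -0.69 to 0.73 (limma adjusted p = 0.990). The interval uses limma's moderated variance, is wider than the scatter of Alas2 and does not show that the crosses are equal. Without DBAxFVB F1 array 3 it was 0.03, and it turned to -0.03 after median centring.

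Fech encodes ferrochelatase, which inserts iron into protoporphyrin in the last step, and its 3 tested probe sets differed in how far the arrays spread. The probe set 1418699_s_at read 13.58, 13.30 and 13.37 in DBAxFVB F1 and 13.15 and 13.61 in AKRxFVB F1. The probe set 1418698_a_at read 12.16, 11.91 and 10.98 in DBAxFVB F1, against 11.52 and 12.17 in AKRxFVB F1. The probe set 1449181_at read 11.46, 10.44 and 8.87 in DBAxFVB F1, against 9.91 and 11.49 in AKRxFVB F1. AKRxFVB F1 array 2 was highest in all 3, while DBAxFVB F1 array 3 was lowest in the last 2 and AKRxFVB F1 array 1 in the other. The range over the arrays was 0.46, 1.19 and 2.62 in that order. The differences were 0.04 ± 0.33, -0.16 ± 0.46 and -0.44 ± 0.78 (SE), and limma's adjusted p was at least 0.862. Without DBAxFVB F1 array 3 they were 0.06, 0.19 and 0.25, so the last 2 changed sign. The last probe set, 1427696_at, stayed between 2.32 and 2.60 on all arrays, below the filter.

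Urod encodes uroporphyrinogen decarboxylase, a cytosolic enzyme in the middle of the pathway, and it was highest on DBAxFVB F1 array 2. The probe set 1443849_x_at read 6.93, 8.46 and 6.84 in DBAxFVB F1, against 7.43 and 7.70 in AKRxFVB F1. Its suffix x marks probes that can also bind similar sequences. The probe set 1417206_at read 5.42, 6.57 and 5.30 in DBAxFVB F1, against 5.83 and 5.62 in AKRxFVB F1. In both, the AKRxFVB F1 values lay inside the range of the DBAxFVB F1 values. Their differences were -0.15 ± 0.52 and 0.04 ± 0.41 (SE), of opposite sign, with 95% intervals of -1.37 to 1.07 and -0.92 to 1.0 (limma adjusted p = 0.936 and 0.982). They were 0.13 and 0.27 without DBAxFVB F1 array 3.

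Globin chains, which carry heme and bind oxygen, gave the highest signals on the arrays, but mostly from probe sets that the annotation shares among several genes and that are not members. These 4 shared probe sets read between 14.52 and 14.82, at the top of the arrays' scale, and ranged by at most 0.19 over the 5 arrays. Their differences lay between -0.03 and 0.01, but values this near the top of the scale may not show a difference. All 4 were lowest on DBAxFVB F1 array 3.

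The single-symbol globin probe sets varied more. Hbb-b2, the beta-minor chain, read 12.45, 12.13 and 11.31 in DBAxFVB F1 on 1427866_x_at, against 11.86 and 12.03 in AKRxFVB F1. DBAxFVB F1 held the highest and the lowest array, and the difference was 0.02 ± 0.43 (SE, limma adjusted p = 0.993). Without DBAxFVB F1 array 3 it was 0.34. The suffix x marks probes that can also bind similar sequences, so the other beta globin transcripts may contribute to this signal. The second Hbb-b2 probe set, 1427865_at, read 2.16, 2.23 and 2.33 in DBAxFVB F1 and 2.18 and 1.99 in AKRxFVB F1, below the filter.

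Hba-a2, an alpha globin chain, had the largest difference among the members, and a single array set its size. It read 5.35, 5.84 and 3.39 in DBAxFVB F1, against 5.72 and 5.87 in AKRxFVB F1. DBAxFVB F1 array 3 lay far below the other 4 arrays, and the groups overlapped. The difference was -0.94 ± 0.65 (SE), with a 95% interval of -2.44 to 0.57 (limma adjusted p = 0.655). It was -0.20 without DBAxFVB F1 array 3 and stayed below 0 in the 14 alternatives. Among these, the filter and variance settings cannot change a difference. The fit with the replicate number as a block repeats the value without DBAxFVB F1 array 3. The probe set of Hba-a1, the other alpha globin gene, read 2.68, 2.61 and 2.60 in DBAxFVB F1, against 2.56 and 2.34 in AKRxFVB F1. It was the single tested probe set whose groups did not overlap, with a difference of 0.18 ± 0.14 (SE, limma adjusted p = 0.690), and its mean lay just above the filter. The AKRxFVB F1 mean of 2.45 was itself below the filter of 2.51, so the probe set was tested only through its higher DBAxFVB F1 values. The difference was 0.19 without DBAxFVB F1 array 3. The 4 shared globin probe sets, 3 of them for alpha globin, read 14.52 or more. The Hba-a1 probe set, at 2.34 to 2.68, and the Hba-a2 probe set, at 3.39 to 5.87, thus cannot be read as the amount of alpha globin RNA. The Hba-a1 and Hba-a2 differences had opposite signs. The first came from a probe set near the filter, and the second owed its size to 1 array. They cannot show whether these genes, with upstream windows that match where they align, behave differently between the crosses.

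**Figure D2:**
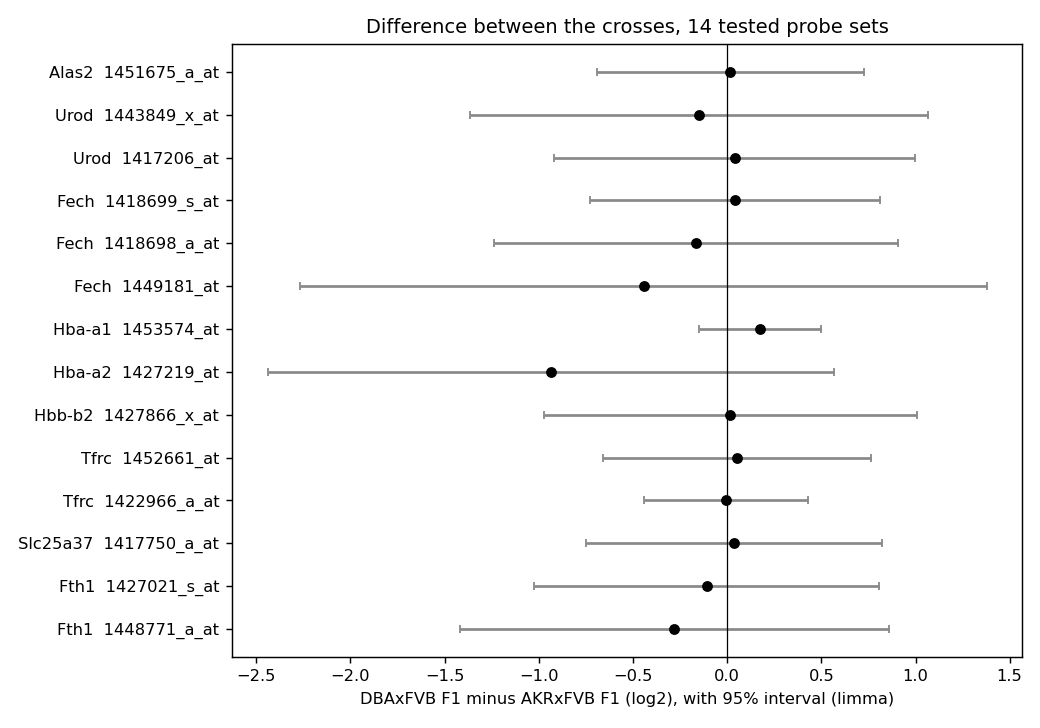
Difference between the crosses (horizontal axis, DBAxFVB F1 minus AKRxFVB F1, log2) for the 14 tested probe sets of the 9 members, with limma's 95% interval as bars. Every interval spans 0, and the widest belong to 1449181_at of Fech and to Hba-a2.

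The tested probe sets of Tfrc and Slc25a37, which serve iron uptake and import, differed by at most 0.05 between the crosses. Tfrc encodes the transferrin receptor, which takes up iron-loaded transferrin and is lost as reticulocytes mature. Its probe set 1452661_at read 4.21, 5.11 and 4.32 in DBAxFVB F1, against 4.60 and 4.39 in AKRxFVB F1, with DBAxFVB F1 array 2 highest. The difference was 0.05 ± 0.31 (SE), with a 95% interval of -0.66 to 0.76 (limma adjusted p = 0.964). The probe set 1422966_a_at lay between 2.75 and 3.23 in DBAxFVB F1 and at 2.85 and 3.05 in AKRxFVB F1, a difference of -0.01 ± 0.19. The Tfrc differences were 0.17 and 0.09 without DBAxFVB F1 array 3. The dimmer probe set 1422967_a_at was below the filter, at 2.43, 2.60 and 2.46 in DBAxFVB F1 and 2.14 and 2.54 in AKRxFVB F1, and the 3 array controls for Tfrc read between 1.84 and 2.38.

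Slc25a37 encodes mitoferrin, which carries iron across the inner mitochondrial membrane. It read 12.45, 12.52 and 12.32 in DBAxFVB F1, against 12.17 and 12.61 in AKRxFVB F1, so the AKRxFVB F1 arrays held both the lowest and the highest value. The difference was 0.04 ± 0.34 (SE), with a 95% interval of -0.75 to 0.82 (limma adjusted p = 0.981), and it was 0.09 without DBAxFVB F1 array 3 and -0.0074 after median centring.

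Fth1 encodes the heavy chain of ferritin, which oxidises and stores iron, and it is expressed in leukocytes as well as in red cells. The probe set 1427021_s_at read 13.01, 12.80 and 12.20 in DBAxFVB F1, against 12.49 and 13.07 in AKRxFVB F1. The probe set 1448771_a_at read 12.35, 12.12 and 11 in DBAxFVB F1, against 11.78 and 12.42 in AKRxFVB F1. Both were lowest on DBAxFVB F1 array 3 and highest on AKRxFVB F1 array 2, with AKRxFVB F1 array 1 second lowest. The differences were -0.11 ± 0.39 and -0.28 ± 0.49 (SE, limma adjusted p = 0.939 and 0.861). Without DBAxFVB F1 array 3 they were 0.12 and 0.13, and after cyclic loess normalization 0.62 and 0.40, so their sign is not settled.

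DBAxFVB F1 array 3 was lowest for most of the members' probe sets. Of the 14 tested probe sets, 9 were lowest on DBAxFVB F1 array 3, 3 on AKRxFVB F1 array 1, 1 on AKRxFVB F1 array 2 and 1 on DBAxFVB F1 array 1. The highest array was AKRxFVB F1 array 2 for 8 of them and DBAxFVB F1 array 2 for 4. Relative to the mean of the 5 arrays, the median of the 14 was 0.12, 0.17 and -0.48 on the DBAxFVB F1 arrays, against -0.10 and 0.20 on the AKRxFVB F1 arrays. Other red cell genes, 31 tested genes of the membrane, enzymes and regulators, had medians of 0.03, 0.28 and -0.44 in DBAxFVB F1 and -0.08 and 0.30 in AKRxFVB F1. Platelet genes ran 0.24, 0.42 and -1.28 in DBAxFVB F1 and -0.37 and 0.86 in AKRxFVB F1. The 143 probe sets with a mean of 10 or more ran 0.04, 0.20 and -0.61 in DBAxFVB F1 and 0.05 and 0.27 in AKRxFVB F1. The part of signal level, RNA quality or platelets in the members' pattern was not tested.

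**Figure D3:**
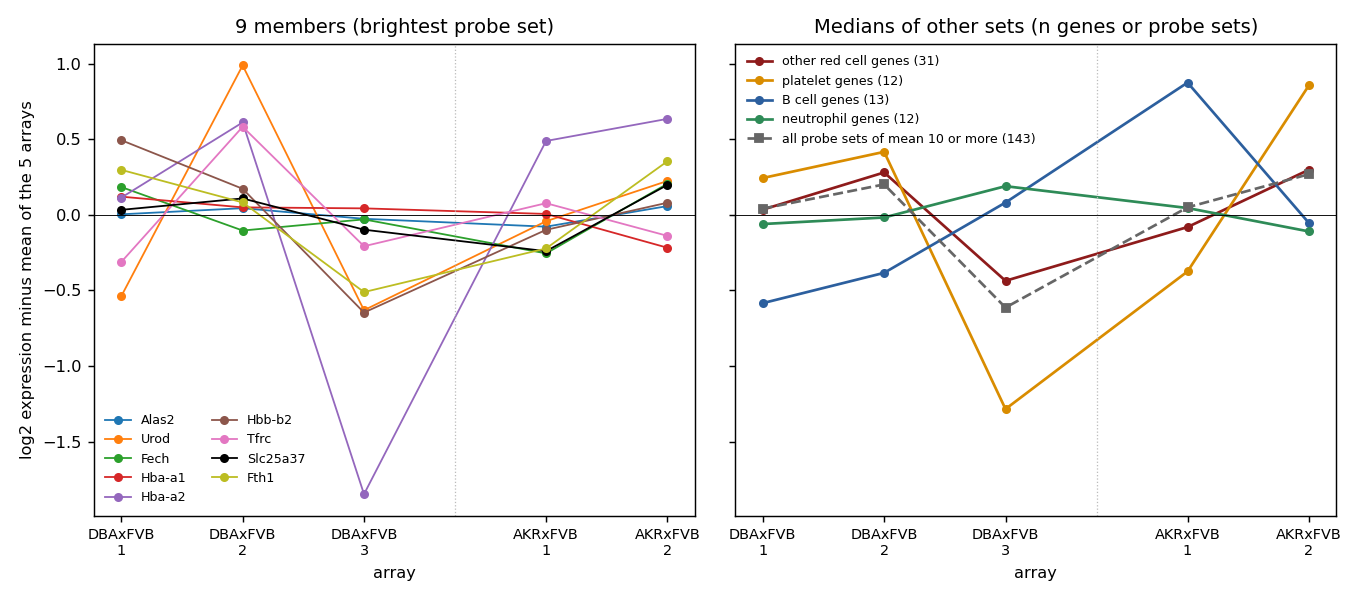
Log2 expression minus the mean of the 5 arrays (vertical axis) by array (horizontal axis), for the probe set of highest mean of each member (left) and as medians of other sets (right). On DBAxFVB F1 array 3, Hba-a2 was at -1.85, platelet genes at -1.28 and the probe sets with a mean of 10 or more at -0.61, whereas Alas2 stayed within 0.08 of its mean on every array.

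Spread over the arrays shrank towards the top of the scale. Tested probe sets with a mean of 10 to 12 had a median range of 1.16 over the arrays (108 probe sets), those of 12 to 13 had 0.50 (21 probe sets) and those of 13 or more had 0.17 (14 probe sets). Alas2, at 0.14, and 1418699_s_at of Fech, at 0.46, belong to the last group. The median difference between the crosses was -0.36, -0.13 and 0.01 in these groups. Alas2 and this Fech probe set thus differed little at a signal level where most probe sets differed little.

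Blood cell markers showed which cells the samples held. Among red cell genes, the anion exchanger gene Slc4a1 read 10.34, 10.71 and 9.13 in DBAxFVB F1, against 10.29 and 10.67 in AKRxFVB F1, so red cell RNA was measured on every array. The sum of linear signal over the 31 red cell genes lay between 15650 and 25410 in DBAxFVB F1, against 20220 and 25410 in AKRxFVB F1. Of the platelet list 12 of 14 genes were tested, and the sum was 1683 to 6132 in DBAxFVB F1, against 3937 and 8083 in AKRxFVB F1. Of the B cell list 13 of 15 genes were tested, and the sum was 191.8 to 332.6 in DBAxFVB F1, against 755.5 and 356.5 in AKRxFVB F1. The T cell list (14 of 16 genes) summed to 461.2 to 566.3 in DBAxFVB F1, against 564.5 and 632.9 in AKRxFVB F1. Linear sums lean on the brightest genes of a list and do not measure the amount of a cell type. In the T cell list Zap70, the brightest, read 7.78 to 8.06 over the arrays. The differences of its 14 tested genes ran from -1.495 for Bcl11b, whose groups overlapped, to 0.20 for Cd8a, with a median of -0.35. The neutrophil list (12 of 16) summed to 274.5 to 443 in DBAxFVB F1, against 473.1 and 301.5 in AKRxFVB F1. The monocyte list (11 of 14) summed to 679.5 to 1335 in DBAxFVB F1, against 1721 and 1286 in AKRxFVB F1. Of 10 cardiac muscle genes, which a cardiac puncture can bring, 6 were tested, and they summed to 91.1 to 123.6 in DBAxFVB F1, against 81.2 and 87.2 in AKRxFVB F1. Of the tested markers, 12 of 13 B cell, 11 of 14 T cell, 6 of 11 monocyte, 11 of 12 platelet, 3 of 12 neutrophil and 2 of 6 cardiac genes were lower in DBAxFVB F1. Over all tested probe sets 43.2% were lower. DBAxFVB F1 array 3 was lowest for 10 of the 12 platelet genes, against 6 of the 14 T cell and 0 of the 13 B cell genes. The marker counts were not made without that array. Among these markers Mmp8 had a DBAxFVB F1 mean of 2.43, and Cd68 and Myl2 had AKRxFVB F1 means of 2.43 and 2.39. These means lay below the filter, so these markers were tested only through the cross where they were higher. The defining genes Lck and Ly6g had no tested probe set with a single symbol. The part of these cells in the members' values was not tested.

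The wider pathway was described by lists, which were chosen with earlier results of these data known. No gene of the lists passed limma's adjusted p below 0.05. Over all tested probe sets 43.2% were lower in DBAxFVB F1. The counts of higher and lower genes in the lists were not made without DBAxFVB F1 array 3. Of 13 tested heme synthesis genes, members included, 10 were higher and 3 lower in DBAxFVB F1, with a median of 0.04, the same as over all tested probe sets. An unadjusted p below 0.05 was seen for 1 on the higher side, where 3.59% of all tested probe sets had it, and for 0 on the lower side, where 6.79% had it. Abcb10, a mitochondrial transporter needed for heme synthesis in red cells, read 4.20, 5.0 and 5.02 in DBAxFVB F1, against 3.76 and 4.23 in AKRxFVB F1. Its difference was 0.75 ± 0.31 (SE, limma adjusted p = 0.466), and the groups overlapped. Slc25a38, the mitochondrial glycine carrier, differed by 0.25 ± 0.19, and Alad, the second enzyme of the pathway, by 0.19 ± 0.23. Alad was at 0.05 without DBAxFVB F1 array 2 and also without AKRxFVB F1 array 2.

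Of 8 tested globin genes and partners, 4 were higher and 4 lower in DBAxFVB F1, with a median of 0.01. The embryonic-type beta globin gene Hbb-bh1 differed by -0.29 ± 0.35 (SE), or by -0.0055 without DBAxFVB F1 array 3, and 6 of the 8 were lowest on DBAxFVB F1 array 3. Of 8 tested genes of iron uptake and import, 6 were higher and 2 lower, with a median of 0.04. Slc11a2, which moves iron out of endosomes, read 2.77, 3.11 and 2.77 in DBAxFVB F1, against 2.40 and 2.55 in AKRxFVB F1. The difference was 0.41 ± 0.16 (limma adjusted p = 0.444). The AKRxFVB F1 mean of Slc11a2, 2.48, was itself below the filter, so it was tested only through its higher DBAxFVB F1 values. Snx3, a sorting protein that recycles the transferrin receptor, differed by -0.66 ± 0.49, or by -0.20 without DBAxFVB F1 array 3. The exocyst gene Exoc6 differed by -0.19 ± 0.19, or by -0.11 without DBAxFVB F1 array 3.

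Among 11 tested genes of iron storage, export and control, 4 were higher and 7 lower in DBAxFVB F1, with a median of -0.11. An unadjusted p below 0.05 was seen for 3 of them, all lower, against 6.79% of all tested probe sets on that side. Pcbp1, an RNA-binding protein that also delivers iron to ferritin, read 3.70, 3.90 and 4.39 in DBAxFVB F1, against 5.48 and 5.09 in AKRxFVB F1. Every DBAxFVB F1 array lay below both AKRxFVB F1 arrays. The difference was -1.29 ± 0.27 (SE), with a 95% interval of -1.92 to -0.65, yet its limma adjusted p was 0.183. Its relative Pcbp2 read 6.68, 6.93 and 6.01 in DBAxFVB F1, against 7.46 and 7.43 in AKRxFVB F1, a difference of -0.91 ± 0.36 (limma adjusted p = 0.444), or -0.47 after quantile normalization. Ireb2, an iron regulatory protein that binds ferritin and transferrin receptor transcripts, read 2.15, 2.42 and 2.25 in DBAxFVB F1, against 3.22 and 2.55 in AKRxFVB F1, near the lower end of the scale. Its difference was -0.61 ± 0.21 (limma adjusted p = 0.392), or -0.27 without AKRxFVB F1 array 1. The DBAxFVB F1 mean of Ireb2, 2.28, was itself below the filter. This gene, counted among the 3 above, was thus tested only through its higher AKRxFVB F1 values. Fbxl5, on the lower side of the counts, had a DBAxFVB F1 mean of 2.417. Bmp6 and Aco1, on the higher side, had AKRxFVB F1 means of 2.441 and 2.509. These means were also below the filter of 2.5124, so these genes too were tested only through the cross where they were higher. With 1 array left out Pcbp1 ranged from -1.48 to -1.09.

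Of 9 tested genes of heme export and breakdown, 5 were higher and 4 lower, with a median of 0.04. Bach1, a heme-sensing repressor, read 3.57, 3.16 and 3.50 in DBAxFVB F1, against 3.90 and 3.82 in AKRxFVB F1, a difference of -0.45 ± 0.19 (SE, limma adjusted p = 0.478). Hp, which encodes haptoglobin, differed by 0.31 ± 0.22, and the heme transporter gene Slc48a1 by -0.47 ± 0.44, or by -0.11 without DBAxFVB F1 array 3 and 0.10 after quantile normalization. Hp was at 0.14 without AKRxFVB F1 array 1. Of 9 tested iron-sulfur cluster genes, 4 were higher and 5 lower, with a median of -0.15 and 0 at an unadjusted p below 0.05. The scaffold gene Iscu differed by -0.51 ± 0.43, the co-chaperone gene Hscb by -0.49 ± 0.50 and the ferredoxin gene Fdx1 by 0.20 ± 0.20. Iscu was at -0.20 and Hscb at -0.04 without DBAxFVB F1 array 3, and after quantile normalization at 0.09 and 0.08. Fdx1 was at 0.04 without DBAxFVB F1 array 1. Of the 31 other red cell genes, 8 were higher and 23 lower, with a median of -0.12. DBAxFVB F1 array 3 was lowest for 19 of these 31, and the counts were not made without it. The glucose transporter gene Slc2a1 differed by -0.87 ± 0.34, the erythropoietin receptor gene Epor by 0.33 ± 0.17 and the carbonic anhydrase gene Car1 by 0.33 ± 0.22. Slc2a1 was at -0.31 without AKRxFVB F1 array 1 and -1.43 without AKRxFVB F1 array 2, and Car1 at 0.56 and 0.10 in the same settings and at 0.18 without DBAxFVB F1 array 1.

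**Figure D4:**
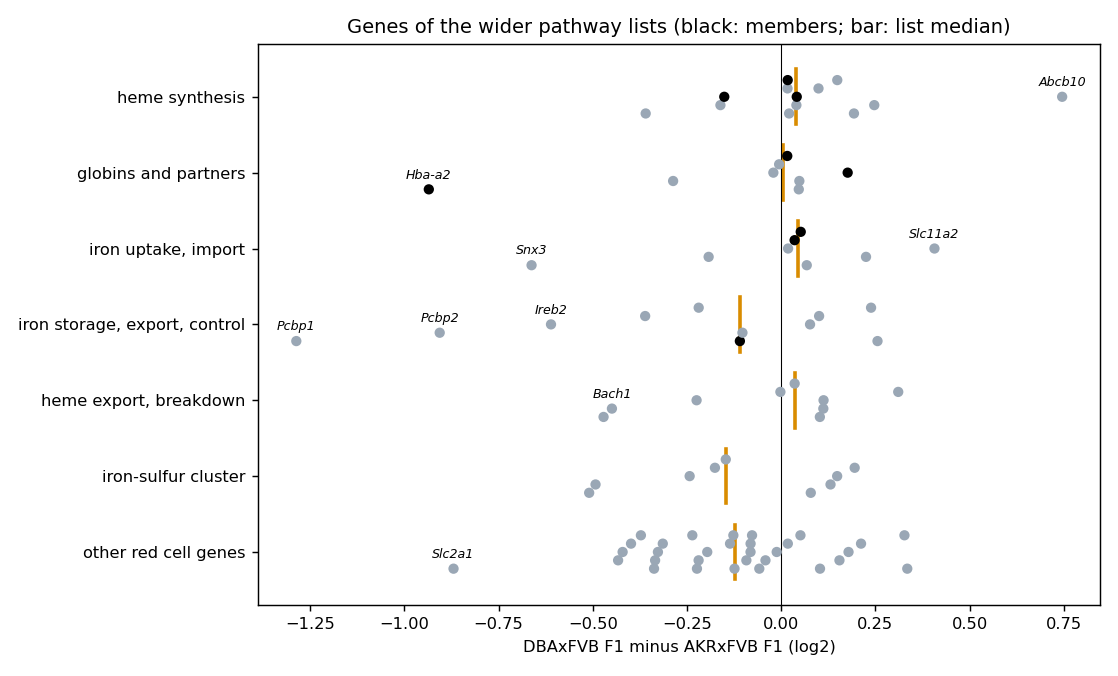
Difference between the crosses (horizontal axis, DBAxFVB F1 minus AKRxFVB F1, log2) for each tested gene of 7 lists (rows). Black points are members, grey points are other genes and the bars are list medians, which lie between -0.15 and 0.04; Pcbp1, at -1.29, is the gene farthest from 0.

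Genes that varied were ordered by how near their profile lay to that of Alas2. Of 3324 tested probe sets with a single symbol and a range of at least 1 over the arrays, the genes nearest to it were Gad1, Hsd17b14, Nup133, Entpd2 and Wnt7a. Their root mean square difference from its centred profile over the 5 arrays was 0.288, 0.294, 0.298, 0.302 and 0.307. Candidates had to range more than Alas2 itself, at 0.14, so a distance above that range follows from the rule and is no finding.

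Scaling between the arrays set the direction of several members. As deposited, the brightest probe sets of Alas2, Fech, Hbb-b2 and Slc25a37 differed by 0.02 to 0.04, and after cyclic loess normalization by 0.80, 0.81, 0.70 and 0.75. Fth1 turned to 0.62 in that setting, against -0.11 as deposited. Quantile normalization gave 0.00 for Alas2, 0.03 for Fech, 0.26 for Hbb-b2 and 0.11 for Slc25a37. The median over all tested probe sets was 0.04 as deposited and 0.03 after quantile normalization. It was 0.0009 with arrays centred on their medians and 0.0007 with cyclic loess, so it moved by under 0.1. Only 11260 of the 22519 tested probe sets had a mean of 3.14 or more, so this median says little about bright ones. Of the 143 with a mean of 10 or more, 125 were lower and 18 higher in DBAxFVB F1 as deposited, with a median of -0.30. The part of signal level in the members' shifts was not tested. No member passed limma's adjusted p below 0.05 under any of these scalings.

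**Figure D5:**
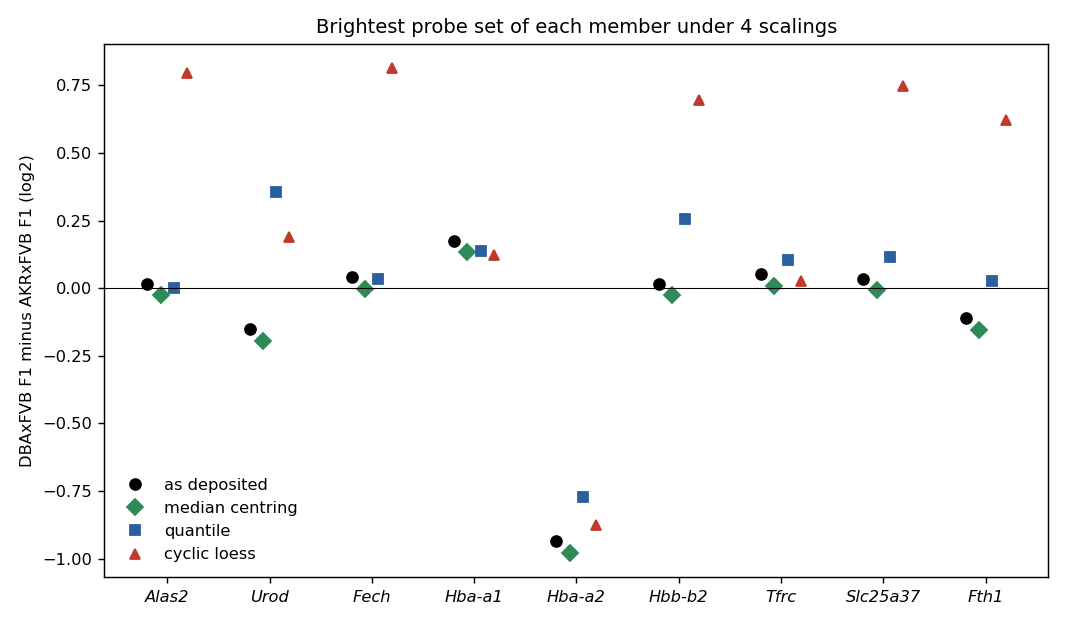
Difference between the crosses (vertical axis, DBAxFVB F1 minus AKRxFVB F1, log2) of the probe set of highest mean of each member (horizontal axis), as deposited and under 3 other scalings. Cyclic loess normalization placed Alas2, Fech, Hbb-b2, Slc25a37 and Fth1 between 0.62 and 0.81, while Hba-a2 stayed between -0.98 and -0.77 in all 4.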

How the data were processed

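RNA from the whole blood of 5 samples was hybridised to Affymetrix arrays after Trizol extraction and amplification in 2 cycles, per the labels' protocols. The values deposited by the authors are normalized expression on what was read as a log2 scale, with 1 value for each probe set on each array. Neither label nor header states that scale, and it was inferred from the range of 1.29 to 14.8. The submitters' processing notes list MAS5 and RMA and no versions. Which of these made the values is not given in the sources used here, nor are the background correction and the scaling between arrays. Dim values may therefore be compressed, and bright values may be too, since spread shrank towards the top of the scale.

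The table held 45101 probe sets. The 64 array controls were not tested, and 34958 probe sets had 1 gene symbol, 932 several and 9211 none. Gene identifiers matched the RefSeq table of GRCm38.p6 for 34754, with 0 symbols changed. The 22519 probe sets whose mean reached 2.51 were tested with limma 3.58.1 (lmFit and eBayes, trended variance, R 4.3.3), two-sided, on all 5 arrays with the cross as the only term, which left 3 residual degrees of freedom. Calls needed a Benjamini-Hochberg adjusted p below 0.05 over every probe set tested. An exact permutation test of 3 arrays against 2 cannot go under that threshold and was not run. Every probe set of a member was described. Other genes named are mostly up to 3 of each pathway list by smallest p and the 5 nearest to Alas2 in profile. Red cell genes outside that rule are Slc4a1, named as a marker, and Trim10, Car2, Epb42, Gypc and Gata1. These last were named for their values on DBAxFVB F1 array 2. Fbxl5, Bmp6, Aco1, Mmp8, Cd68 and Myl2 were named for a cross mean below the filter. Zap70, Bcl11b and Cd8a were named as the brightest gene and the ends of the T cell list. Marker lists are given as sums of linear signal, medians and counts. In a list, the brightest tested probe set stood for its gene. Members and lists were chosen with earlier results of these data known. Alternatives covered scaling, filter, variance model, array weights, a replicate block and leaving out each array. Summaries and plots were made with Python 3.11.15, pandas 2.3.3 and matplotlib 3.10.9.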

Additional observations from a re-analysis of the deposited data

How the results depend on the processing

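Under 14 alternatives, or 13 where a stricter filter left a probe set out, the 14 tested member probe sets gave 194 values, of which 0 passed an adjusted p below 0.05 and 50 changed sign. No alternative gave a probe set past that threshold, over all probe sets or among the members, where the lowest limma adjusted p was 0.572. Over all probe sets the lowest limma adjusted p was 0.0639 with array weights, 0.0787 with the replicate block and 0.0944 after cyclic loess normalization, and Pcbp1 reached 0.0724 and 0.0787 in the first 2. Over all probe sets the count at an unadjusted p below 0.05 lay between 1271 and 3880. The number of arrays and an unstated scaling limit what the values can show.

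The median over the 9 members moved to 0.62 after cyclic loess normalization and ranged from -0.18 to 0.12 with 1 array left out, lowest without AKRxFVB F1 array 1. Values that changed sign were, after quantile normalization, 0.35 for Urod (1443849_x_at), 0.0467 and 0.0885 for Fech (1418698_a_at and 1449181_at) and 0.0265 for Fth1 (1427021_s_at). After median centring they were -0.0258 for Alas2, -0.0031 for Urod (1417206_at), -0.0017 for Fech (1418699_s_at), -0.0269 for Hbb-b2 and -0.0074 for Slc25a37. After cyclic loess normalization they were 0.19 for Urod (1443849_x_at), 0.50 and 0.12 for Fech (1418698_a_at and 1449181_at) and 0.62 and 0.40 for Fth1. With array weights they were 0.0613 for Urod (1443849_x_at), 0.0323 for Fech (1418698_a_at), 0.0628 for Tfrc (1422966_a_at) and 0.019 for Fth1 (1427021_s_at). The cause was not tested.

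With 1 array left out, Alas2 ranged from -0.0508 to 0.0853, Urod from -0.68 to 0.13 (1443849_x_at) and from -0.36 to 0.27 (1417206_at), and Fech from -0.19 to 0.27 (1418699_s_at), from -0.49 to 0.19 (1418698_a_at) and from -1.23 to 0.34 (1449181_at). Hba-a1 ranged from 0.06 to 0.29, Hba-a2 from -1.43 to -0.20, Hbb-b2 from -0.23 to 0.34, Tfrc from -0.23 to 0.22 (1452661_at) and from -0.15 to 0.10 (1422966_a_at), Slc25a37 from -0.18 to 0.25, and Fth1 from -0.40 to 0.18 (1427021_s_at) and from -0.60 to 0.13 (1448771_a_at). Among 19 other named genes, 4 of 262 values changed sign, Slc48a1 at 0.10, Iscu at 0.0914 and Hscb at 0.083 after quantile normalization and Iscu at 0.0109 after cyclic loess normalization, and 0 passed. These 262 also include the settings that cannot change a sign.

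The crosses share replicate numbers 1 and 2, which only name the samples. The deviations of same-numbered arrays from their cross means correlated at -0.26 for number 1 and 0.17 for number 2 across probe sets, which are not independent. With the replicate number as a block, DBAxFVB F1 array 3 is absorbed by its own term, 0 member probe sets passed, and the median over the members was 0.12. The block gave 0.13 for Urod (1443849_x_at), 0.19 and 0.25 for Fech (1418698_a_at and 1449181_at), 0.092 for Tfrc (1422966_a_at) and 0.12 and 0.13 for Fth1, each of the opposite sign to the value without it.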

Other observations

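Urod and Tfrc shared a pattern that was noticed after their values were seen. All 5 of their probe sets outside the array controls were highest on DBAxFVB F1 array 2, and 4 of these were tested. That array was highest for 18.5% of all tested probe sets and for 13 of the 31 other red cell genes. Trim10, Car2 and Epb42 are examples picked from these 13, and the other red cell genes were highest on other arrays. Of those others, Gypc, Gata1 and Slc2a1 were lowest on DBAxFVB F1 array 2. The erythroid gene Trim10 read 8.14, 9.70 and 8.30 in DBAxFVB F1, against 8.98 and 8.56 in AKRxFVB F1. The carbonic anhydrase gene Car2 read 9.32, 10.32 and 8.74 in DBAxFVB F1, against 9.71 and 9.68 in AKRxFVB F1. Epb42, a protein of the red cell membrane skeleton, read 4.23, 5.61 and 3.71 in DBAxFVB F1, against 3.96 and 4.76 in AKRxFVB F1. Alas2 and Slc25a37 did not show the peak, with 13.57 and 12.52 on that array, against 13.59 and 12.61 on AKRxFVB F1 array 2.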
